A study of Mus musculus with 8 samples.

Results

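*Osr1* and *Osr2* encode odd-skipped related zinc finger transcription factors, and were the 2 genes followed here among 28001 features counted in single cells of the embryonic mouse forelimb. Both were chosen by name, as the 2 members of the family, and the rule for choosing them uses no expression value. In limb development, *Osr1* is known as a marker of irregular connective tissue cells, among them the fibroblasts that lie within and around skeletal muscle. *Osr2* is known from limb mesenchyme and the tissue of the forming joints, and both genes are known to act redundantly in joint formation. The deposited counts are UMIs, i.e. molecules tagged during reverse transcription, and a level is given as UMIs per 1000000 UMIs of the same cells (CPM).

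The series holds 8 libraries made with 10x Genomics 3′ kits from C57BL/6J forelimb cells. Sorted libraries (6) held tdTomato+ cells of Hic1CreERT2/CreERT2;Rosa26LSLtdTomato/tdTomato embryos whose dams received 7.5 mg tamoxifen by gavage at E10, and 1 library was made on each day from E11.5 to E14.5, 1 at E16.5 from a proximal segment (distal stylopod, proximal zeugopod and elbow) and 1 at E16.5 from a distal segment (distal zeugopod and autopod). Whole limb libraries (2) held lineage-negative E11.5 cells from the same tamoxifen scheme that were labelled as both tdTomato+ and tdTomato-. Their titles give no genotype, and the study's methods give Hic1CreERT2;R26tdTomato limbs as their source. CreERT2 is expressed from the *Hic1* locus, so the sorted cells are those that expressed *Hic1* around the time of tamoxifen, together with their descendants, and all sorted cells carry that allele on both chromosomes. Forelimbs of several embryos of both sexes were pooled per library, and cells with CD45, CD117, CD31, CD11b, F4/80 or Ter119 on their surface were gated out. Cells were kept at 3000 UMIs or more and at most 10% mitochondrial UMIs, which left 3165 to 11109 cells per library with a median of 6788 to 18473 UMIs. The v2 kit was used up to E13.5 and the v3 kit at E14.5 and E16.5.

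The labels were checked with the tdTomato transcript. At least 3 tdTomato UMIs were found in 62.3% of E11.5 sorted cells and in up to 99.0% of cells in the E16.5 proximal library. In the whole limb libraries no cell had 3 tdTomato UMIs (0 of 5464 and 0 of 5682 cells, which allows shares of up to 0.0549% and 0.0528%), although their labels include tdTomato+ cells. At 3000 UMIs per cell, a *Hic1* UMI was found in 7.35% of E11.5 sorted cells with an *Osr1* UMI, against 0.738% and 0.364% of such cells in whole limb libraries 1 and 2. Any pair of libraries shared at most 48 cell barcodes, and at most 1.04% of the cells of either library.

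*Osr1* (ENSMUSG00000048387) lies at chr12:9570116-9581500 and *Osr2* (ENSMUSG00000022330) at chr15:35296098-35303305, both on the plus strand of GRCm38 in GENCODE. The only annotated gene that overlaps either of them is 1700022H16Rik at the *Osr1* locus, a minus-strand non-coding RNA annotated as a bidirectional promoter transcript. It had at most 3 UMIs in any library. As the 2 genes are related, their transcripts were compared to see whether short reads could be assigned to the wrong member. The longest stretch that any *Osr1* transcript shares with any *Osr2* transcript is 23 bases. It is shown because a read that covered no more than these bases could not be assigned to 1 of the genes, with the shared bases in capitals and 3 flanking bases of each gene in lower case, at chr12:9579735-9579757 in exon 2 of Osr1-201 and at chr15:35300897-35300919 in exon 2 of Osr2-201, inside the coding part of both:
Osr1: cctTACACCTGTGACATCTGCCACAAagc
Osr2: ccaTACACCTGTGACATCTGCCACAAggc
The stretch lies 1047 bases from the 3′ end of Osr1-201 and 623 bases from that of Osr2-201. The reads counted here come mainly from the 3′ end of transcripts, and the levels of the 2 genes were thus taken as separate measurements.

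Across the time course, *Osr2* was highest at E11.5 and *Osr1* at E13.5. Outside epithelial clusters, *Osr1* was at 116 CPM in the E11.5 library, 98.5 CPM a day later, 189 CPM in the E13.5 library, 110 CPM in that of E14.5 and 54.5 CPM in the E16.5 proximal segment. *Osr2* was at 278 CPM in the E11.5 library, 95.6 CPM a day later, 144 CPM in the E13.5 library, 49.6 CPM in that of E14.5 and 46.8 CPM in the E16.5 proximal segment. *Osr2* was thus above *Osr1* at E11.5, the pair lay within counting error of each other at E12.5, and *Osr1* was above *Osr2* from E13.5 to the E16.5 proximal segment. The order turned again in the E16.5 distal segment, at 32.5 CPM for *Osr1* and 51.4 CPM for *Osr2*. In whole limb 1 and 2, *Osr1* was at 18.4 and 17.8 CPM (mean 18.1 ± 0.432, SD, n = 2) and *Osr2* at 39.0 and 36.6 CPM (mean 37.8 ± 1.67, SD, n = 2), the lowest levels of both genes among the 8 libraries. The cells left out of the whole limb as epithelial by their markers were a cluster of 77 cells led by *Pf4* and *Ppbp*, which are platelet genes, so that this cluster is given no cell type name here.

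**Figure D1:**
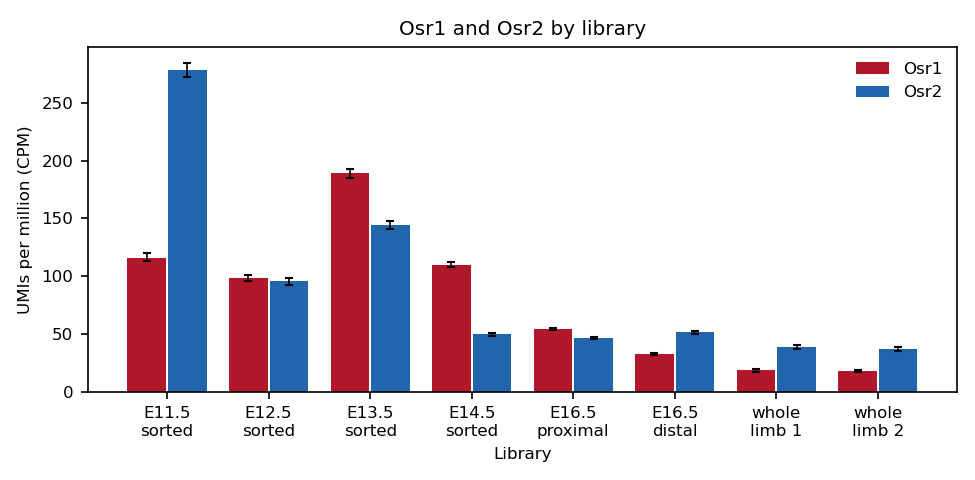
Level of *Osr1* (red) and *Osr2* (blue) in each library, in CPM, cells of epithelial clusters left out. Bars are the CPM of summed UMIs and error bars the exact 95% Poisson interval, which covers counting error only; *Osr2* is highest at E11.5 (278 CPM) and *Osr1* at E13.5 (189 CPM).

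From E11.5 to the E16.5 proximal segment, the log2 ratio of the later over the earlier level was -2.57 (interval -2.61 to -2.53) for *Osr2* and -1.09 (interval -1.15 to -1.04) for *Osr1*. These intervals are exact and cover counting error only, since each stage is 1 library, and no test between stages was run. The steps were uneven. The log2 ratio of *Osr2* was -1.54 for E12.5 over E11.5 and again -1.54 for E14.5 over E13.5, whereas that of *Osr1* was 0.94 for E13.5 over E12.5. Stage cannot be told apart from the dissociation enzymes between E12.5 and E13.5 (Dispase at first, then Collagenase and Pronase per the study's methods), from kit between E13.5 and E14.5, nor from the limb part dissected between E14.5 and E16.5.

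The share of cells with a UMI was read once each cell was thinned to 3000 UMIs. An *Osr1* UMI was found in 23.6% of E11.5 sorted cells, and an *Osr2* UMI in 49.0%. At E12.5, where the levels were within counting error, the shares were 18.0% (interval 16.9% to 19.1%) for *Osr1* and 21.9% (interval 20.7% to 23.1%) for *Osr2*. At E14.5 the shares were 22.4% for *Osr1* and 11.2% for *Osr2*. Without thinning, the E14.5 shares were 51.0% and 29.9%, at a median of 14333 UMIs per cell. The UMIs were unevenly spread over cells. The tenth of E11.5 sorted cells with most *Osr1* UMIs held 52.7% of them, against 36.5% for *Osr2*. These shares are of unthinned UMIs (3665 of *Osr1* and 8754 of *Osr2*), so that level and depth enter them. Whether the members differ in spread at equal level was not tested. Single cells held up to 41 *Osr1* UMIs (E16.5 distal) and 34 *Osr2* UMIs (E13.5).

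To ask whether early *Hic1*-lineage cells differ from the limb mesenchyme at large, the E11.5 sorted library was compared with both whole limb libraries, leaving out clusters with markers of myogenic, epithelial, endothelial, immune, erythroid or glial cells. Both genes were higher in the sorted cells. *Osr1* was at 116 CPM in the sorted cells against 19.6 and 18.7 CPM in whole limb 1 and 2, and *Osr2* at 278 CPM against 40.9 and 38.2 CPM. The whole limb libraries lay close to each other and far below the sorted library for both genes. The log2 fold change was 2.42 (SE 0.10) for *Osr1* and 2.63 (SE 0.09) for *Osr2* (edgeR quasi-likelihood test with Benjamini-Hochberg adjustment over all 15100 genes tested, adjusted p = 2.89e-114 and 4.08e-178). Both members were called, where 53.4% of all genes tested were called and 26.9% were called as higher in sorted cells, so the call by itself says little. In size, *Osr1* ranked 276 and *Osr2* 218 of 15100 genes by fold change. The test has 1 residual degree of freedom and assumes that the single sorted library varies like the whole limb libraries, which nothing in the labels ties to separate litters, so its p-values may measure technical spread. The size of the difference depended on the whole limb cells used. Among cells called proximal mesenchyme-like in each arm, *Osr2* was at 68.8 CPM in sorted cells against 11.7 CPM in each whole limb library. *Osr1* was at 106 CPM in these sorted cells against 54.7 and 38.7 CPM. The class was called in each arm from markers raised over the other cells clustered with it. Its cells are thus not a matched cell type between the arms. The comparisons that follow kept all 3165 sorted cells, of every class, so that cell types are not matched there either. Against proximal mesenchyme-like whole limb cells alone, the log2 fold change was 1.20 (SE 0.12) for *Osr1* and 4.46 (SE 0.14) for *Osr2*, and against the single cluster led by *Pcdh8*, chosen for its *Osr1* level after the values were seen, it was 0.02 (SE 0.13) for *Osr1*, which was no longer called (edgeR adjusted p = 9.33e-01), and 4.65 (SE 0.19) for *Osr2*.

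Genes of 2 related lists gave context in the same comparison. Of 15 joint formation genes tested, 9 were higher and 4 lower in the sorted cells and 2 were not called, with a median log2 fold change of 0.84 against 0.01 over all genes. Over all 15100 genes, 4062 (26.9%) were higher and 4004 lower, so that the lower share of the list was near that of all genes. The largest differences were in *Chrd* (2.96, SE 0.20), a BMP antagonist, *Wnt9a* (2.88, SE 0.20), a Wnt ligand of the early joint, *Gdf6* (-2.02, SE 0.44), a joint growth factor at only 0.317 CPM in sorted cells, and *Creb5* (1.49, SE 0.10), a transcription factor. Of 12 muscle connective tissue genes, 8 were higher and 3 lower and 1 was not called, with a median of 0.90, against the same shares over all genes. *Mkx* (2.05, SE 0.13), a homeobox gene of tendon, *Meox2* (1.85, SE 0.09), a homeobox gene of limb muscle patterning, and *Tcf7l2* (1.64, SE 0.10), a marker of muscle connective tissue, were higher. *Lox* (1.56, SE 0.21), which encodes a collagen cross-linking enzyme, was also higher. *Tbx3* (-1.56, SE 0.10), a T-box gene, and the Hox genes *Hoxd11* (-1.23, SE 0.10) and *Hoxa11* (-0.91, SE 0.13) were the members that were lower, the Hox genes being named after their values were seen. The fold changes of *Osr1* and *Osr2* lay above those of all 12 muscle connective tissue genes.

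Within the whole limb, the members were highest in different clusters, in both libraries. Cells were clustered without using *Osr1*, *Osr2* or *Hic1*, and a cluster was called X-like only from marker genes. The highest *Osr1* level was in a cluster led by *Pcdh8*, *Lum* and *Dlk1*, with 123 CPM in whole limb 1 (273 cells) and 87.6 CPM in whole limb 2 (302 cells). *Osr2* was at 8.68 and 11.4 CPM in the same cells. *Osr1* also exceeded *Osr2* in the cluster led by *Cntfr*, *Dkk1* and *Lum* with *Tbx2*, *Tbx3* and *Hand2*, at 38.0 and 43.4 CPM against 17.3 and 18.8 CPM.

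The order was the opposite in chondrocyte-like cells. In the cluster led by *Matn4*, *Lect1* and *Col9a2*, all cartilage genes, *Osr2* was at 157 and 155 CPM and *Osr1* at 8.43 and 7.37 CPM. In the chondrocyte-like cluster with *Lect1*, *Foxc1* and *Col2a1*, *Osr2* was at 156 and 143 CPM and *Osr1* at 31.6 and 24.8 CPM. The cluster led by *Col8a1*, *Nrtn* and *Meox2* had the highest *Osr2* level, at 180 and 161 CPM, with *Osr1* at 34.6 and 36.5 CPM. For these 5 clusters the 2 libraries gave the same order of *Osr1* and *Osr2*, with values that do not overlap between the genes.

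Both genes were near the floor in distal mesenchyme-like cells. In the cluster with *Hoxd13*, *Evx2* and *Hoxd12*, genes of the presumptive hand plate, *Osr1* was at 0.286 and 0.897 CPM (2 and 6 UMIs) and *Osr2* at 2.00 and 2.39 CPM. In the other distal mesenchyme-like cluster, *Osr1* was at 0.737 and 0.971 CPM, and *Osr2* at 6.14 and 5.10 CPM. As a reference for cells of another lineage, the cluster with *Myog* and *Myod1*, the myogenic regulators, had 4.91 and 6.40 CPM of *Osr1* and 18.9 and 17.5 CPM of *Osr2*. The part of free RNA in these low values was not tested. Over the 14 clusters, *Osr1* levels spanned 0.286 to 123 CPM in whole limb 1 and *Osr2* levels 2.00 to 180 CPM. With both members low in the same distal clusters, Pearson's r of log2(CPM + 1) over the 14 clusters was 0.45 in whole limb 1 and 0.49 in whole limb 2.

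**Figure D2:**
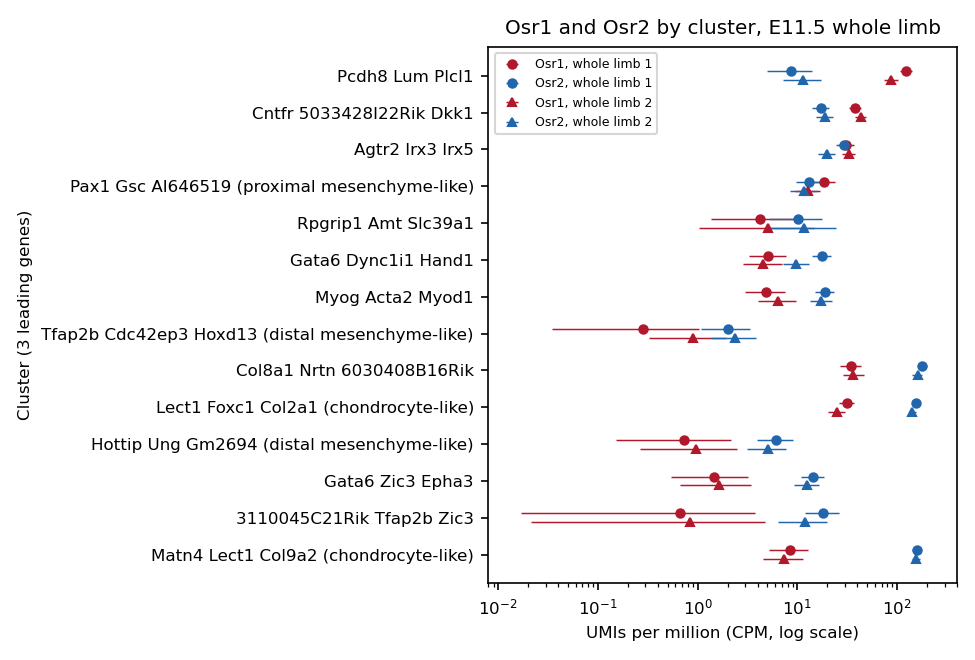
*Osr1* (red) and *Osr2* (blue) levels in each cluster of the E11.5 whole limb, in CPM on a log scale, circles for whole limb 1 and triangles for whole limb 2, with exact 95% Poisson intervals. Clusters are named by 3 leading genes and ordered by the log2 ratio of *Osr1* to *Osr2* averaged over both libraries, from *Osr2*-high chondrocyte-like cells at the bottom (157 against 8.43 CPM in whole limb 1) to *Osr1*-high cells at the top (123 against 8.68 CPM).

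In the sorted cells of E11.5, *Osr2* exceeded *Osr1* in 9 of 11 clusters and *Osr1* exceeded *Osr2* in the other 2, beyond counting error in each. The *Osr2* level was highest, at 525 CPM, in a chondrocyte-like cluster led by *Col8a1* with *Ogn* and *Matn4*, where *Osr1* was at 144 CPM. The ratio of the members was widest in the cluster with *Aldh1a2* and *Gdf5*, a growth factor of the joint interzone, at 372 CPM for *Osr2* against 35.5 CPM for *Osr1*. *Osr1* was ahead in the cluster with *Meis2* and *En1* (106 against 68.8 CPM) and in the one with *Msx1*, *Irx3* and *Irx5* (152 against 90.4 CPM). The *Meis2* cluster was the proximal mesenchyme-like class. The order in that class turned when cells were called by markers or the time course was clustered together.

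At E12.5 the members were highest in different clusters. The cluster led by *Pax9*, *Tfap2a* and *Col8a1* held both above their median over clusters, at 163 CPM for *Osr1* and 116 CPM for *Osr2*. *Osr1* was at 334 CPM and *Osr2* at 32.6 CPM in the cluster led by *Igf1*, *Tac2* and *Lgr5*. *Osr1* was at 233 CPM and *Osr2* at 25.6 CPM in the cluster with *Irx5* and *Prox1*. In the cluster with *Gdf5*, *Gdf6* and *Hhex*, *Osr1* was at 18.2 CPM and *Osr2* at 171 CPM, and in the one with *Matn4*, *Lect1* and *Col9a3* the levels were 29.6 and 148 CPM. Over the 11 clusters, Pearson's r of log2(CPM + 1) between the genes was -0.73 and Spearman's rho -0.66, as a description of clusters of 1 library that share depth and dissection.

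At E13.5 *Osr1* reached 463 CPM in the cluster led by *Gatm* and *Acta2*, and 442 CPM in the one led by *Alx1* and *Grem1*, with *Osr2* at 81.8 and 122 CPM there. Both members were high in the cluster with *Tppp3*, *Ntrk2* and *Dcn*, at 358 CPM for *Osr1* and 318 CPM for *Osr2*. Chondrocyte-like cells again had more *Osr2* (113 CPM) than *Osr1* (37.5 CPM), and tenocyte-like cells had 168 CPM of *Osr1* and 136 CPM of *Osr2*, a log2 ratio of 0.30 that was 1.70 for the tenocyte-like cells of a finer clustering. The r over the 13 clusters was -0.05.

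By E14.5, *Osr1* was above *Osr2* in 15 of 17 clusters outside the epithelial cells. Fibroblast-like cells with *Dpt* had 214 CPM of *Osr1* and 80.4 CPM of *Osr2*. The cluster led by *Sfrp4*, *Prss12* and *Wnt2*, with 3 raised markers of fibrogenic progenitors and 4 of fibroblasts, had 154 and 29.3 CPM. The largest *Osr2* level, 202 CPM against 132 CPM of *Osr1*, was in the cluster with *Islr2*, *Hey1* and *Hoxa13*. Chondrocyte-like cells had 28.0 CPM of *Osr1* and 15.9 CPM of *Osr2*, so that their order was the reverse of that at E11.5 and E13.5. Over the 17 clusters r was 0.55.

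**Figure D3:**
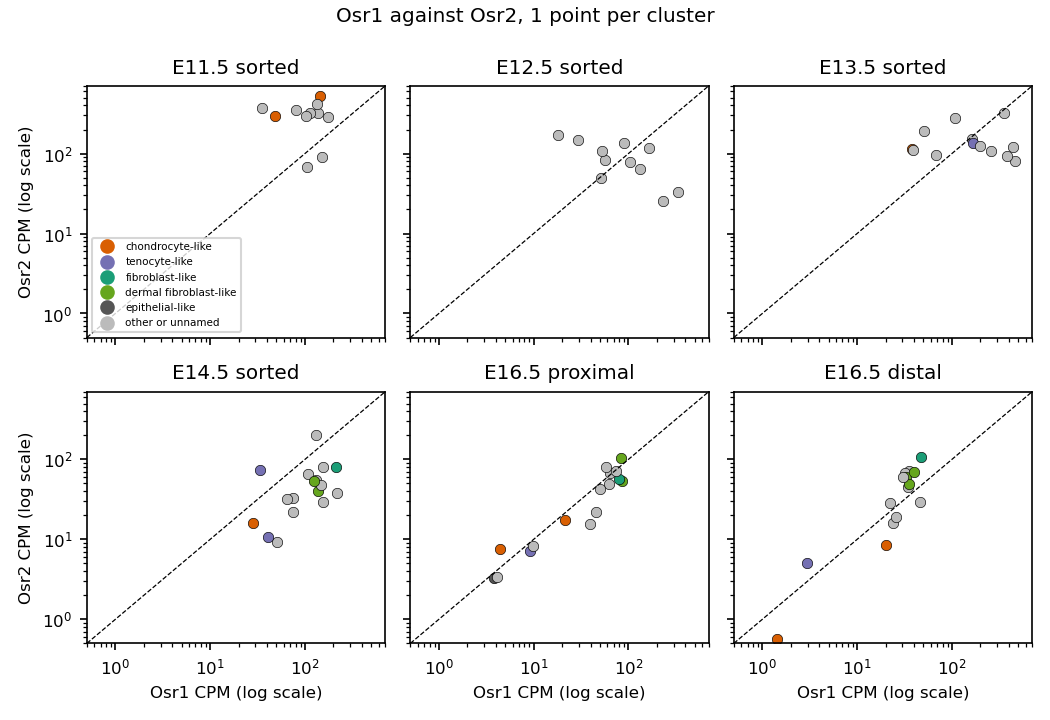
*Osr2* level against *Osr1* level for each cluster of at least 50 cells in the 6 sorted libraries, in CPM on log axes, with the dashed line at equal levels and colours for named classes. Points lie mostly above the line at E11.5, run across it at E12.5 (r = -0.73) and along it in the E16.5 proximal (r = 0.91) and distal (r = 0.90) segments; 1 epithelial-like cluster of E14.5 with 0 *Osr2* UMIs is not drawn.

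At E16.5 the levels of the members had r = 0.91 over 14 clusters of the proximal segment and r = 0.90 over 15 clusters of the distal segment, clusters low for both genes included. *Osr1* was above *Osr2* in 6 proximal clusters, below it in 3 and within counting error in 5. It was above *Osr2* in 4 distal clusters, below it in 8 and within counting error in 3. The 3 proximal clusters include the one led by *Matn1* (4.43 against 7.68 CPM), whose levels are not read as above background. In the proximal segment, fibroblast-like cells led by *Wfdc18* and *Ly6a* had 80.1 CPM of *Osr1* and 56.7 CPM of *Osr2*. Dermal fibroblast-like cells with *Rspo1* and *Col7a1* had 85.1 and 53.6 CPM. The order was the opposite in the cluster led by *Dpep1* and *C2*, at 83.3 and 105 CPM, and in the one led by *Nell2* and *Igfbp2*, at 58.7 and 81.4 CPM. Pericyte-like cells, led by *Rgs5*, *Acta2* and *Myh11*, had 39.6 CPM of *Osr1* and 15.4 CPM of *Osr2*.

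Tenocyte-like cells and the larger chondrocyte-like cluster were low for both. Tenocyte-like cells with *Tnmd* and *Scx* had 9.22 CPM of *Osr1* and 7.20 CPM of *Osr2* in the proximal segment, and the chondrocyte-like cluster led by *Matn1* had 4.43 and 7.68 CPM. Epithelial-like cells were taken as a reference for background, and whether they express either gene was not tested. They had 3.83 CPM of *Osr1* and 3.24 CPM of *Osr2*. After thinning, an *Osr1* UMI was found in 0.660% of epithelial-like cells (median 46206 UMIs before thinning), in 2.52% of tenocyte-like cells (median 14903) and in 1.26% of chondrocyte-like cells led by *Matn1* (median 15962). The exact 95% intervals of these shares overlap, at 0.180% to 1.68% in epithelial-like cells, 0.632% to 2.25% in chondrocyte-like cells and up to 3.96% in tenocyte-like cells. Without thinning, an *Osr1* UMI was found in 10.2% of tenocyte-like, 4.59% of *Matn1* and 8.25% of epithelial-like cells, and an *Osr2* UMI in 5.88%, 7.58% and 7.92%. The cluster led by *Krt14* and *Krt5* (median 23130 UMIs) was nearer in depth. It had 4.11 CPM of *Osr1* (interval 2.87 to 5.72) and an unthinned share of 5.36% (interval 3.21% to 8.33%). In tenocyte-like cells the interval was higher in CPM (7.54 to 11.2), and that of the unthinned share, 8.10% to 12.7%, barely overlapped. As the epithelial cells of both clusters were deeper, their CPM is no floor for shallower cells. Neither gene is thus read as above background in tenocyte-like cells, where it stays unsettled for *Osr1*, or in the *Matn1* cluster. The smaller chondrocyte-like cluster, with *Matn3*, *Epyc* and raised mitotic markers (201 cells), had 21.3 CPM of *Osr1* and 17.4 CPM of *Osr2*. After thinning, an *Osr1* UMI was in 5.47% of its cells (interval 2.76% to 9.58%), above the epithelial-like share. Without thinning it was in 30.3% (median 28294 UMIs), against 8.25% of the deeper epithelial-like cells.

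To see how the limb segments differ, the distal library was set against the proximal one outside epithelial clusters. The *Osr1* level was lower distally, at 32.5 against 54.5 CPM, a log2 ratio of -0.74 (interval -0.79 to -0.70). The *Osr2* level was 51.4 against 46.8 CPM, a log2 ratio of 0.14 (interval 0.09 to 0.18), and equal weighting of 7 named classes turned it to -0.14. That mean includes chondrocyte-like (-1.69, at 3.28 CPM distally) and tenocyte-like cells (-0.52, at 5.01 CPM), which were low for *Osr2*. The other classes were dermal fibroblast-like (-0.22), fibroblast-like (0.89), fibrogenic progenitor-like (0.44), mitotic-like (0.06) and pericyte-like (0.05). There is 1 library per segment and no test.

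Within clusters that had at least 50 cells in both segments, *Osr1* was lower distally in 7 of 10, higher in 1 and within counting error in 2. The 7 include the *Tnmd* cluster, whose levels (2.98 against 9.22 CPM) are not read as above background. *Osr2* was lower in 3, higher in 2 and within counting error in 5. Dermal fibroblast-like cells with *Rspo1* had 35.0 CPM of *Osr1* distally and 85.1 proximally, and the cluster led by *Dpep1* and *C2* had 39.5 and 83.3 CPM. In the cluster led by *Alx1* and *Rit2* the *Osr1* levels were 35.0 and 64.3 CPM, and the *Osr2* levels 71.0 and 66.8 CPM. This cluster also held muscle fibre genes (*Acta1*, *Actc1*, *Tnnc2*, *Myl1*, *Mylpf*) among its 10 leading genes, and their part in its values was not tested. The exception was the cluster with *Alpl* and *Runx2*, genes of bone formation, where both members were higher distally, at 25.8 against 9.95 CPM for *Osr1* and 19.3 against 8.19 CPM for *Osr2*. Its unthinned proximal share of cells with an *Osr1* UMI, 9.22%, was close to the 8.25% of epithelial-like cells, which were deeper. After thinning, the share was 4.61% (interval 2.23% to 8.31%) proximally and 6.17% (interval 3.75% to 9.47%) distally. Both intervals lie above that of proximal epithelial-like cells (0.180% to 1.68%). The fibroblast-like cells of the segments fell into different clusters. Those of the distal segment, with *Pi16*, had 47.3 CPM of *Osr1* and 107 CPM of *Osr2*, and those of the proximal segment, with *Wfdc18* and *Ly6a*, had 80.1 and 56.7 CPM, so the order of the members turned between them.

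**Figure D4:**
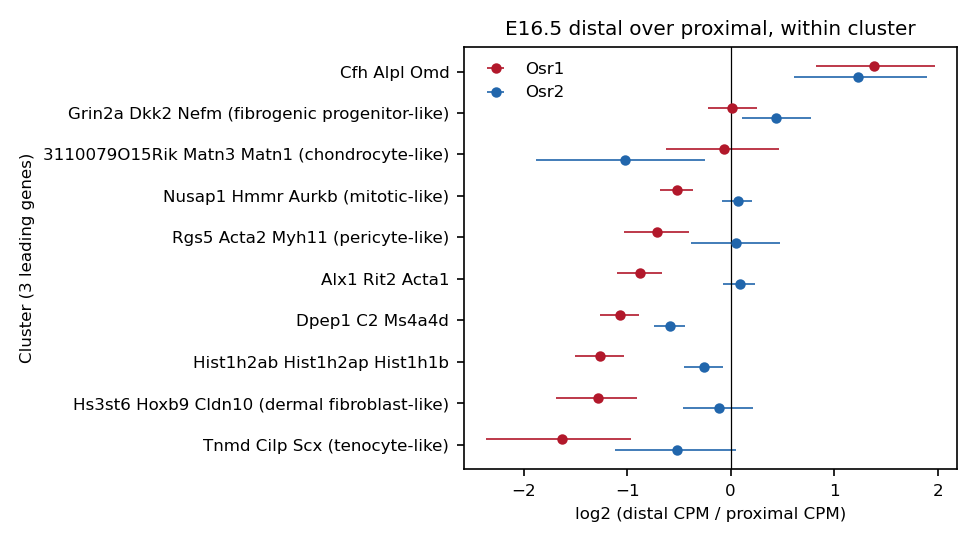
Log2 ratio of distal over proximal CPM at E16.5 for *Osr1* (red) and *Osr2* (blue) within each of the 10 clusters with at least 50 cells in both segments, with exact 95% intervals for counting error. *Osr1* ratios lie mostly below 0 with a median of -0.79, and *Osr2* ratios have a median of -0.03. The lowest *Osr1* ratio, in the *Tnmd* cluster, rests on levels not read as above background. The highest, in the *Alpl* cluster, rests on 25.8 CPM distally and 9.95 CPM proximally.

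For the joint formation list, 2 of the 15 genes at 5 CPM or more were at least 2-fold higher distally and 2 at least 2-fold lower, on log2(CPM + 1), where 3.59% and 2.03% of 10126 genes were. *Erg* (1.54) and *Trps1* (1.24) encode transcription factors and were higher, and *Barx1* (-1.44), a homeobox gene, and *Gdf5* (-1.03) were lower. For the muscle connective tissue list, 3 of 12 were at least 2-fold higher and none lower. These were *Hoxa11* (2.01) and *Hoxd11* (1.45), Hox genes of the zeugopod, and *Tbx5* (1.34), the forelimb T-box gene. *Mkx* differed by 0.70.

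From E11.5 to the E16.5 proximal segment, 3 of 13 joint formation genes were at least 2-fold higher and 1 lower on log2(CPM + 1), where 1387 of 10709 genes were higher and 2939 (27.4%) lower and the median gene differed by -0.46. *Cd44*, a hyaluronan receptor, differed by 4.83, *Barx1* by 2.66, *Wnt4*, a Wnt ligand of the joint, by 1.54 and *Trps1* by -1.26. Of the 12 muscle connective tissue genes, 2 were at least 2-fold higher and 5 lower. *Lox* differed by 4.61, *Tbx5* by -3.16, *Tcf7l2* by -1.99 and *Hoxd11* by -1.78.

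Co-detection in the same cell was then measured at 3000 UMIs per cell, so that deeper cells did not detect both genes more often. At E11.5, 386 of 3165 sorted cells (12.2%) held a UMI of both genes, where the product of the separate shares is 11.6%. Among cells with an *Osr1* UMI, 51.6% had an *Osr2* UMI, against 48.2% of the remaining cells, a log2 odds ratio of 0.20 (interval -0.04 to 0.43). At E12.5 the shares were 21.2% and 22.1%, a log2 odds ratio of -0.07 (interval -0.33 to 0.19). The interval spans 0 at both stages. Without thinning, the E12.5 value was -0.28 (interval -0.45 to -0.10), below 0.

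Over all cells of a library, those with *Osr1* had *Osr2* more often than the rest from E13.5 on. The shares were 30.7% and 25.2% at E13.5, 16.5% and 9.65% at E14.5, 15.5% and 9.79% in the E16.5 proximal segment, and 15.6% and 12.1% in the distal segment. The log2 odds ratio was 0.40 (interval 0.22 to 0.57) at E13.5, 0.89 (0.68 to 1.10) at E14.5, 0.76 (0.53 to 0.99) proximally and 0.43 (0.12 to 0.75) distally. In whole limb 1 and 2 it was 1.03 and 0.63, with intervals above 0, from 46 and 36 cells with both, and thinned to 2000 UMIs the value of whole limb 2 was -0.13. The value moves with the random draw of UMIs. Over 20 further draws it lay between -0.07 and 0.34 at E11.5, between -0.43 and -0.01 at E12.5, between 0.54 and 1.01 at E14.5 and between 0.33 and 1.01 in whole limb 1, with a median of 0.68, so that the 1.03 given above lies beyond all of these draws.

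**Figure D5:**
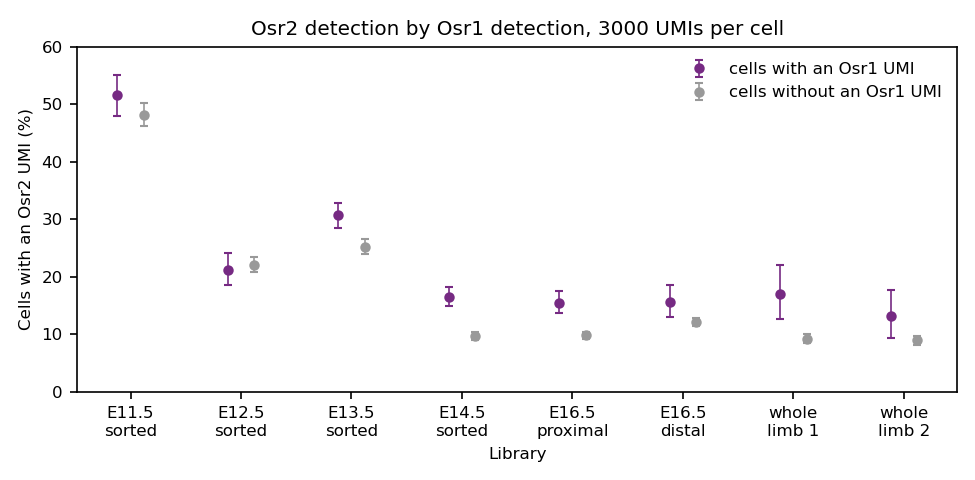
Share of cells with an *Osr2* UMI among cells with (purple) and without (grey) an *Osr1* UMI in each library, in percent, each cell thinned to 3000 UMIs, with exact 95% binomial intervals that cover counting error only. In sorted cells the intervals overlap at E11.5 (51.6% and 48.2%) and E12.5 (21.2% and 22.1%). They lie apart from E13.5 on (30.7% and 25.2%, then 16.5% and 9.65% at E14.5), and also in whole limb 1 (17.0% and 9.17%).

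Within single clusters, the interval of the odds ratio lay above 0 in 3 of 13 clusters at E13.5, in 4 of 18 at E14.5 and in 1 of 11 at both E11.5 and E12.5. In the whole limb chondrocyte-like cluster led by *Matn4*, where few cells held *Osr1*, 75.0% and 76.9% of those had *Osr2* (9 and 10 cells), against 30.3% and 26.9% of the rest. The log2 odds ratio there was 2.64 (interval 0.85 to 4.44) in whole limb 1 and 3.02 (interval 1.26 to 4.79) in whole limb 2. It rests on 12 and 13 cells with *Osr1*, which was low there (8.43 and 7.37 CPM). In the chondrocyte-like cluster with *Foxc1*, which had 43 and 29 such cells, both intervals span 0. The values there were 0.85 (interval -0.06 to 1.75) and 0.32 (interval -0.80 to 1.44). Pooled over clusters (Mantel-Haenszel), the log2 odds ratio was 0.32 in the E11.5 library, 0.37 a day later, 0.39 in the E13.5 library, 0.57 in that of E14.5, 0.26 in the E16.5 proximal and 0.20 in the distal segment, and 0.84 and 0.40 in whole limb 1 and 2. Within clusters, the values of E11.5 and E12.5 were thus not below those of E16.5. The cluster with most cells holding both was the E13.5 cluster led by *Tppp3* and *Ntrk2*, at 29.4%, where the product of the separate shares is 30.2% and the log2 odds ratio was -0.18 (interval -0.73 to 0.38).

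Other genes were read in the same cells. *Pdgfra*, the receptor that marks mesenchymal progenitors and fibroblasts, was found in 60.2% of E11.5 sorted cells with an *Osr1* UMI and in 54.5% of the rest. *Tcf7l2* was found in 64.6% of E13.5 cells with *Osr1* against 51.5% of the rest, a log2 odds ratio of 0.79 (interval 0.62 to 0.95), and with *Osr2* the shares were 58.8% and 54.1% (0.27, interval 0.11 to 0.44). The order was the opposite at E11.5, at 0.29 (interval -0.01 to 0.58) with *Osr1* and 0.76 (interval 0.51 to 1.01) with *Osr2*, and in whole limb 1 and 2, at -0.07 and 0.28 with *Osr1* and 1.01 and 1.38 with *Osr2*. In the E16.5 distal segment both intervals span 0. *Gdf5* was read as a gene of the joint interzone. At E12.5, *Gdf5* was in 11.2% of cells with *Osr2* and 3.72% of the rest (log2 odds ratio 1.71, interval 1.34 to 2.08), but in 3.77% of cells with *Osr1* and 5.72% of the rest (-0.61, interval -1.15 to -0.07). In the E16.5 distal segment it was in 1.90% of cells with *Osr1* (13 cells) and 0.657% of the rest (1.59, interval 0.72 to 2.46), and in 0.669% of cells with *Osr2* (7 cells) and 0.770% of the rest (-0.12, interval -1.22 to 0.98). In the proximal segment the values were -3.00 (interval -4.80 to -1.19) with *Osr1* and -1.48 (interval -2.72 to -0.25) with *Osr2*, from 2 and 5 cells, and at E14.5 both intervals span 0. No difference between stages or segments was tested.

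*Scx* encodes the transcription factor of tendon progenitors. In whole limb 1 and 2 it was in 26.6% and 28.1% of cells with *Osr2*, against 11.9% and 11.3% of the rest. With *Osr1* it was likewise more frequent, at 24.0% and 18.5% against 12.7% and 12.6% of the rest. In the sorted libraries, the log2 odds ratio of *Scx* was 0.29 (interval 0.05 to 0.53) with *Osr1* and 0.25 (0.04 to 0.46) with *Osr2* at E11.5. It was -0.61 (-0.85 to -0.38) and -0.18 (-0.39 to 0.03) at E12.5, and -0.60 (-0.78 to -0.42) and -0.66 (-0.85 to -0.47) at E13.5. In the E16.5 proximal segment *Scx* was in 1.88% of cells with *Osr2* and 10.4% of the rest, and in 2.64% of cells with *Osr1* and 10.5% of the rest. *Sox9*, the regulator of chondrogenesis, was in 49.6% and 53.4% of whole limb cells with *Osr2* (39.7% and 40.6% of the rest) but in 26.2% and 29.8% of those with *Osr1* (41.4% and 42.4% of the rest). In the later sorted libraries *Sox9* was less frequent with *Osr2* too, at a log2 odds ratio of -0.54 (interval -0.71 to -0.37) at E13.5, -0.88 (-1.17 to -0.60) at E14.5, -1.13 (-1.43 to -0.83) in the E16.5 proximal and -0.78 (-1.11 to -0.45) in the distal segment. *Dpt*, a fibroblast matrix gene, was in 26.6% of E16.5 proximal cells with *Osr1* and 17.0% of the rest, and in 27.5% and 17.2% for *Osr2*. *Rgs5*, a pericyte gene, was in 0.427% of E16.5 proximal cells with *Osr2* (5 cells) against 2.02% of the rest, and in 1.32% against 1.93% for *Osr1*. The log2 odds ratios were -2.13 (interval -3.36 to -0.91) and -0.53 (-1.20 to 0.15). In the distal segment both intervals span 0, at -0.54 (-1.32 to 0.25) with *Osr2* and -0.68 (-1.69 to 0.32) with *Osr1*. *Prg4*, the lubricin gene of the joint surface, was in 10 cells with *Osr1* and 8 with *Osr2* in the E16.5 proximal library, too few to compare. *Hic1* was in 9.76% of E13.5 cells with *Osr1* and 5.75% of the rest, and in 7.87% and 6.60% for *Osr2*. The log2 odds ratios were 0.83 (interval 0.54 to 1.12) with *Osr1* and 0.28 (-0.03 to 0.58) with *Osr2*. Both intervals span 0 at E11.5 and in the E16.5 distal segment. At E12.5 the values were 0.55 (0.23 to 0.87) and -0.08 (-0.41 to 0.25). At E14.5 and in the E16.5 proximal segment both intervals lay above 0.

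Genes with the most similar pattern were taken by Pearson's r of log2(CPM + 1) over library-by-cluster sums, which share libraries and stages. Over 84 sums of the sorted libraries and 6705 genes, those most like *Osr1* were *Adprh* (r = 0.83), *Gm1673* (0.78), *Calm3* (0.78), *Palm* (0.78), *Col26a1* (0.78) and *Tmem59l* (0.74). *Adprh* encodes an ADP-ribosylarginine hydrolase, *Calm3* a calmodulin and *Col26a1* a collagen chain. Those most like *Osr2* were *Abhd17b* (0.82), *Runx1t1* (0.80), *Tmem119* (0.79), *Pdgfra* (0.78), *Hoxd9* (0.78) and *Tax1bp3* (0.78). *Runx1t1* encodes a transcriptional corepressor. The r between *Osr1* and *Osr2* was 0.66, below that of more than 100 other genes for either member. Over 28 whole limb sums it was 0.47, and those most like *Osr1* were *Dlk1* (0.97), *Hmga2* (0.96), *Meg3* (0.94), *Cntfr* (0.94), *Pcdh10* (0.94) and *L3mbtl3* (0.92), whereas *Homer2* (0.89), *Rgma* (0.86), *Gadd45g* (0.86), *Sept6* (0.86), *Lrig3* (0.85) and *H19* (0.85) were most like *Osr2*. *Dlk1* and *Meg3* are imprinted genes of 1 locus and *H19* is an imprinted non-coding RNA.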

How the data were processed

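Single-cell RNA of 8 forelimb libraries was analysed from the deposited UMI counts per gene and barcode, which the authors made with Cell Ranger (3.0.2 for 5 sorted libraries and 6.0.1 for the E16.5 distal library per the file headers; the whole limb headers name none, and the study's reporting summary names 1 other version for the single-cell data) on a modified mm10. Barcodes with 3000 UMIs and at most 10% mitochondrial UMIs were kept. Clusters came from scanpy 1.11.5 (2000 variable genes, 50 components, 25 neighbours, Leiden resolution 1) without *Osr1*, *Osr2*, *Hic1*, Hox, transgene, haemoglobin, mitochondrial and sex-linked genes, in 6 sets (each stage, both E16.5 segments together, both whole limb libraries together). A cluster took the class with the highest share of raised markers, at least 3, unless its 10 leading genes went against it. Clusters led by keratins were treated as epithelial after the clusters were seen. Scrublet's automatic threshold marked at most 4 cells per library and was not used. Doublets stayed in, and the cells with the highest scores (0.8% per 1000 cells) were left out as an alternative. Levels are CPM of summed UMIs with exact 95% Poisson intervals, and shares have exact binomial (Clopper-Pearson) intervals. The only test, edgeR 4.0.16 (TMM, filterByExpr), was run on sums per library and checked on simulated counts, where 179 of 200 genes changed 4-fold were called in the E11.5 comparison of 15100 genes, with 10 false calls. All simulated libraries were drawn with the same spread. The check could thus not test whether the sorted library varies like the whole limb libraries. DESeq2 1.42.0 and limma 3.58.1 were alternatives. Named genes were the members, the 6 genes most alike by r, and up to 4 genes with the largest change per list and comparison, to which the lower muscle connective tissue genes at E11.5 were added after their values were seen. Leading genes of clusters and co-detection partners are named to identify cells. The members and lists were chosen with earlier results of these data known. No protein sequence was used here.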

Additional observations from a re-analysis of the deposited data

How the results depend on the processing

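For E11.5 sorted against whole limb cells, DESeq2, limma-voom, DESeq2 size factors in edgeR, no filter, all filtered cells, doublets removed and proximal mesenchyme-like whole limb cells kept the direction and the call of both members, with adjusted p of at most 1.41e-02 (no filter). Against proximal mesenchyme-like whole limb cells, with sorted cells of every class kept, the log2 fold change was 1.20 for *Osr1* and 4.46 for *Osr2*. Against the whole limb cluster led by *Pcdh8* alone, chosen for its *Osr1* level after the data were seen, it was 0.02 for *Osr1* (adjusted p = 9.33e-01) and 4.65 for *Osr2*. Without whole limb replicate 1 or 2, the untested log2 ratio was 2.57 to 2.63 for *Osr1* and 2.76 to 2.86 for *Osr2*. These are ratios of CPM without TMM scaling, another measure than the tested fold changes. Calls fell from 8066 to 4914 with DESeq2 and 4255 without the filter. No paired analysis was possible because the sorted group has 1 library. For E16.5 proximal over E11.5, *Osr1* moved to -1.03 with thinning, -1.31 with all cells and -1.01 with per-cell means, and *Osr2* to -2.78, -2.79 and -2.78. For distal over proximal, all cells gave -0.54 for *Osr1* and 0.34 for *Osr2*. With thinning *Osr2* was 0.18, with per-cell means 0.19 and with equal class weights -0.14, low chondrocyte-like and tenocyte-like cells included. The log2 odds ratio of co-detection without thinning was -0.28 in the E12.5 library, 0.75 in that of E13.5, 1.33 at E14.5, 1.70 in E16.5 proximal, 1.10 in E16.5 distal and 0.51 in whole limb 1. Thinned to 2000 UMIs it was -0.11 at E11.5, -0.45 at E12.5, 0.57 at E14.5 and -0.13 in whole limb 2, and pooled over clusters 0.37 at E12.5, 0.57 at E14.5 and 0.26 in E16.5 proximal. *Osr1* exceeded *Osr2* in 25 of 40 library-by-class sums, and in 16 of 25 with the time course clustered together. These counts take any excess, so that sums within counting error and sums of epithelial-like cells are included. Single class ratios of *Osr1* over *Osr2* turned in fibrogenic progenitor-like cells of E16.5 distal (-0.49, marker calls), whole limb cells classed as mitotic-like (1.25 and 1.53, resolution 2) and proximal mesenchyme-like cells of E11.5 (-0.52, marker calls, and -1.43, time course together). At resolution 2, 32 of 36 shared sums kept the order, and mitotic-like cells, within counting error of 0 at first, went from 0.03 to -0.41 at E12.5 and from 0.10 to -0.22 at E13.5. Tenocyte-like cells of E13.5 moved from 0.30 to 1.70 there. Where a value moved, the cause was not tested.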
